A study of Mus musculus with 9 samples.

Results

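The Nduf genes encode the nuclear subunits of mitochondrial complex I and several of the factors that assemble it. A gene counted as a member when a probe set of the array was annotated with exactly 1 gene symbol and that symbol began with Nduf. This gave 88 probe sets and 44 genes, of 18193 genes in the table, and each gene was represented by its brightest probe set, judged by the mean of the 9 arrays. No expression difference entered this choice. In the epidermis of newborn Alox12b-null mice, 0 of the 44 genes passed the test against wildtype, 34 read lower and 10 read higher, and all differences lay between -0.49 and 0.48 on the log2 scale.

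Complex I, the NADH:ubiquinone oxidoreductase, is the entry point of electrons from NADH into the respiratory chain and pumps protons across the inner mitochondrial membrane. Its matrix arm holds the N module, which binds and oxidises NADH, and the Q module, which passes electrons to ubiquinone, while its membrane arm pumps the protons. Around a conserved core that is encoded in part by mitochondrial DNA sit accessory subunits, and dedicated assembly factors build the modules and join them without remaining in the finished enzyme. Keratinocytes make energy by both glycolysis and respiration, and they lose their mitochondria with the other organelles when they cornify.

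Alox12b encodes 12R-lipoxygenase, an enzyme of the outer epidermis that oxidises linoleate in ceramides of the skin barrier. The series compared 4 Alox12b-null with 5 wildtype newborns, sampled immediately after birth with no treatment. Heterozygous knockout parents were mated and the offspring genotyped, per the labels' protocols, and the labels give the strain 129S6 for the wildtype only. Trunk epidermis was peeled from the dermis after a brief dip in hot saline, and RNA from each biological replicate went onto 1 array of the type Affymetrix Mouse Genome U430 2.0. The labels do not give the deleted part of Alox12b, nor whether animals shared a litter.

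The labelled tissue and genotype were checked first. The keratins Krt1 and Krt10 and the cornified envelope protein loricrin (Lor) read between 13.99 and 14.46 on all 9 arrays, near the top of the scale. Alox12b itself read 11.13 ± 0.33 (SD, n = 4) in knockout and 10.91 ± 0.29 (SD, n = 5) in wildtype, which differed by 0.23 (limma adjusted p 0.547), so its probe set did not separate the genotypes. Xist, the RNA of the inactive X chromosome, read between 9.99 and 10.20 in the 4 knockouts and 10.95 in wildtype 4, against 3.23 to 4.32 in the other 4 wildtypes. The Y-linked Eif2s3y ran the other way, at 2.00 to 2.43 in the knockouts, 2.11 in wildtype 4 and 7.67 to 8.04 in the other wildtypes, so all knockouts and 1 wildtype had the female pattern and the sexes were unevenly spread over the genotypes. Mean levels of 8 basal keratinocyte markers ran from 6.52 to 6.82 in knockout and from 7.02 to 7.86 in wildtype. Knockout 4 stood apart in markers of dermal cells, with a mean over 7 fibroblast markers of 8.92 against 5.15 to 7.45 elsewhere and a mean over 7 smooth muscle markers of 5.81 against 3.26 to 3.66. In such bulk tissue, fewer cells of a type and less RNA per cell cannot be told apart.

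The promoters of 5 members are shown. These are the genes whose groups did not overlap in the brightest probe set, and the member that read highest in knockout relative to wildtype. Sequences are those of RefSeq for the build GRCm38.p6, from 250 bases before to 50 bases after the gene's start, written 5′ to 3′ on the gene's strand. Ndufa9 lies at chr6:126849095-126849394 on the minus strand, Ndufa6 at chr15:82354242-82354541 on the minus strand, Ndufc2 at chr7:97399753-97400052 on the plus strand, Ndufa10 at chr1:92473709-92474008 on the minus strand and Ndufv3 at chr17:31519865-31520164 on the plus strand. Capitals mark a match to 1 of 4 motifs of factors known to drive nuclear genes of the respiratory chain.
Ndufa9: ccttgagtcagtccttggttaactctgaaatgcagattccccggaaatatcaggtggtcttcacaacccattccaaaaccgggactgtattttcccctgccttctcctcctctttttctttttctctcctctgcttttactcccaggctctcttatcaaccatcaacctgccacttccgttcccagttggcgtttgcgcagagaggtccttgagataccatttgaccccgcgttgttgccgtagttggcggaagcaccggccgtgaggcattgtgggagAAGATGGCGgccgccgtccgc
Ndufa6: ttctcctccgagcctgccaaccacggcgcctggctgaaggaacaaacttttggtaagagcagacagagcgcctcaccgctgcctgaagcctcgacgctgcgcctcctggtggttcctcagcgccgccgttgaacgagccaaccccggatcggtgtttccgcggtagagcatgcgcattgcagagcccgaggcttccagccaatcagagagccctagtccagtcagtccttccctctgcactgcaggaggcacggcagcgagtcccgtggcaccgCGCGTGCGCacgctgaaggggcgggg
Ndufc2: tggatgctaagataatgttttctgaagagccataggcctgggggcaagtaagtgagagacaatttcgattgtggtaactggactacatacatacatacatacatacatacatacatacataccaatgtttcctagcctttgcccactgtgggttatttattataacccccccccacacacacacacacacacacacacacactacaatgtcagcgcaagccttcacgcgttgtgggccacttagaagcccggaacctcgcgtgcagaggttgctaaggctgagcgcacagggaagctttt
Ndufa10: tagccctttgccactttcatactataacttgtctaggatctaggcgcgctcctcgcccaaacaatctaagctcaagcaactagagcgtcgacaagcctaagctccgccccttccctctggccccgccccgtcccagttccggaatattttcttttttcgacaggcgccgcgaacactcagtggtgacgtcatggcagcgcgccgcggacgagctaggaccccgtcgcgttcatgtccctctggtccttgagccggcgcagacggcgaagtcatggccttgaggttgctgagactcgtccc
Ndufv3: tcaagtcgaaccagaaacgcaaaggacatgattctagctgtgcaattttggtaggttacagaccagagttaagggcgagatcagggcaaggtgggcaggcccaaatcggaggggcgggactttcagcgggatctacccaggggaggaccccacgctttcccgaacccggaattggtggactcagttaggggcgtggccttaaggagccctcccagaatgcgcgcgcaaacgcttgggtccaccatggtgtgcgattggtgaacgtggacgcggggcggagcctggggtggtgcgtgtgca

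The motifs, searched on both strands, were GCGCANGCG for the core of the NRF1 site, CCGGAAG for the ETS family that includes GABPA, AAGATGGCG for YY1 and TCAAGGTCA for ESRRA. Promoters were given for 39 of the 44 genes, and those of Ndufa2, Ndufa4l2, Ndufaf6, Ndufb9 and Ndufs1 were not searched. The NRF1 core was present in 8 of 39 Nduf promoters (20.5%), against 7.03% of 27025 promoters of the same length. The YY1 motif was present in 5 (12.8%), against 1.64% of all promoters. The ETS motif was in 6 (15.4%) against 9.93%, and the ESRRA motif in 0 against 0.466%. At least 1 of the motifs was found in 18 Nduf promoters (46.2%) and in 16.9% of all promoters. Of the promoters shown, Ndufa9 carried the YY1 motif starting 29 bases after the gene's start, Ndufa6 carried the NRF1 core on the other strand 24 bases after it, and Ndufc2, Ndufa10 and Ndufv3 had no match. These matches describe letters within the window and not binding.

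The comparison asked whether the loss of Alox12b went with a different level of complex I transcripts. Values are log2 expression as deposited, so that a difference of 1 is a factor of 2, and each difference is knockout minus wildtype. All 18193 genes were tested together with limma and Benjamini-Hochberg adjustment, with a call at an adjusted p under 0.05. By that rule 1.24% of all genes were called, 0.511% as higher and 0.731% as lower in knockout, and 0 of the 44 Nduf genes in either direction. The smallest adjusted p among the members was 0.130. With the Xist level of each array as a covariate, 9 genes in all and 0 Nduf genes passed. At an unadjusted p under 0.05 there were 9 members, 8 lower (18.2%) against a background of 10.7% of all genes and 1 higher (2.27%) against 7.08%. In 4 members (9.09%) every knockout lay below every wildtype, against 5.14% of all genes, and in 0 members every knockout lay above, against 3.14%.

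The median difference over the 44 genes was -0.08, against 0.02 over all genes, and 77.3% of the members read lower in knockout, against 46.5% of all genes. The Nduf genes are bright on this array, with a median level of 8.95. The 1895 genes whose mean was at least 8, a level chosen after the values were seen, also had a median difference of -0.08, with 61.2% lower, 18.3% lower at an unadjusted p under 0.05 and 10.2% with every knockout below every wildtype. Among the 29 Nduf genes at that level the median was -0.07 and 69.0% read lower. In that direction 20.7% had an unadjusted p under 0.05 and 13.8% had every knockout below every wildtype. Toward higher values 1 of the 29 had an unadjusted p under 0.05, against 176 of the 1895. Of the 1895 genes 34 were called higher and 23 lower, and of the 29 Nduf genes 0. The members' median thus lay near that of all bright genes. Their shares in the lower direction lay somewhat above, and this gap was not tested. The split moved with the processing, from 25 lower and 19 higher with array weights, and 26 and 18 both after quantile normalization and without knockout 4, to 38 lower and 6 higher with array medians centred or with Xist as a covariate. The median was -0.03 after quantile normalization, against 0.03 over all genes.

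The 95% confidence interval of the difference held 0 in 35 of the 44 genes. It lay within 0.5 on either side of 0 in 23 genes and within 1 in 42. For the probe sets used, a change of a factor of 2 or more thus lay outside the interval except in Ndufb5, whose interval reached -1.03, and Ndufb6, whose interval reached -1.12. In 6 members that probe set had a mean under 5. For the dimmest, Ndufb4 and Ndufaf6, a narrow interval says little about the transcript. Ndufaf5, Ndufaf7 and Ndufb1 also read partly at the level Xist showed where it was low, 3.23 to 4.32. Their intervals carry the same limit. The spread within groups was small for the 44 genes, with a median pooled SD of 0.183 against 0.236 over all genes, and ran from 0.0735 for Ndufa13 to 0.597 for Ndufaf4. The p-values set each difference against the spread within the groups of these 9 animals. The sexes were unevenly spread over the genotypes, so genotype and sex cannot be fully told apart in the difference tested.

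**Figure D1:**
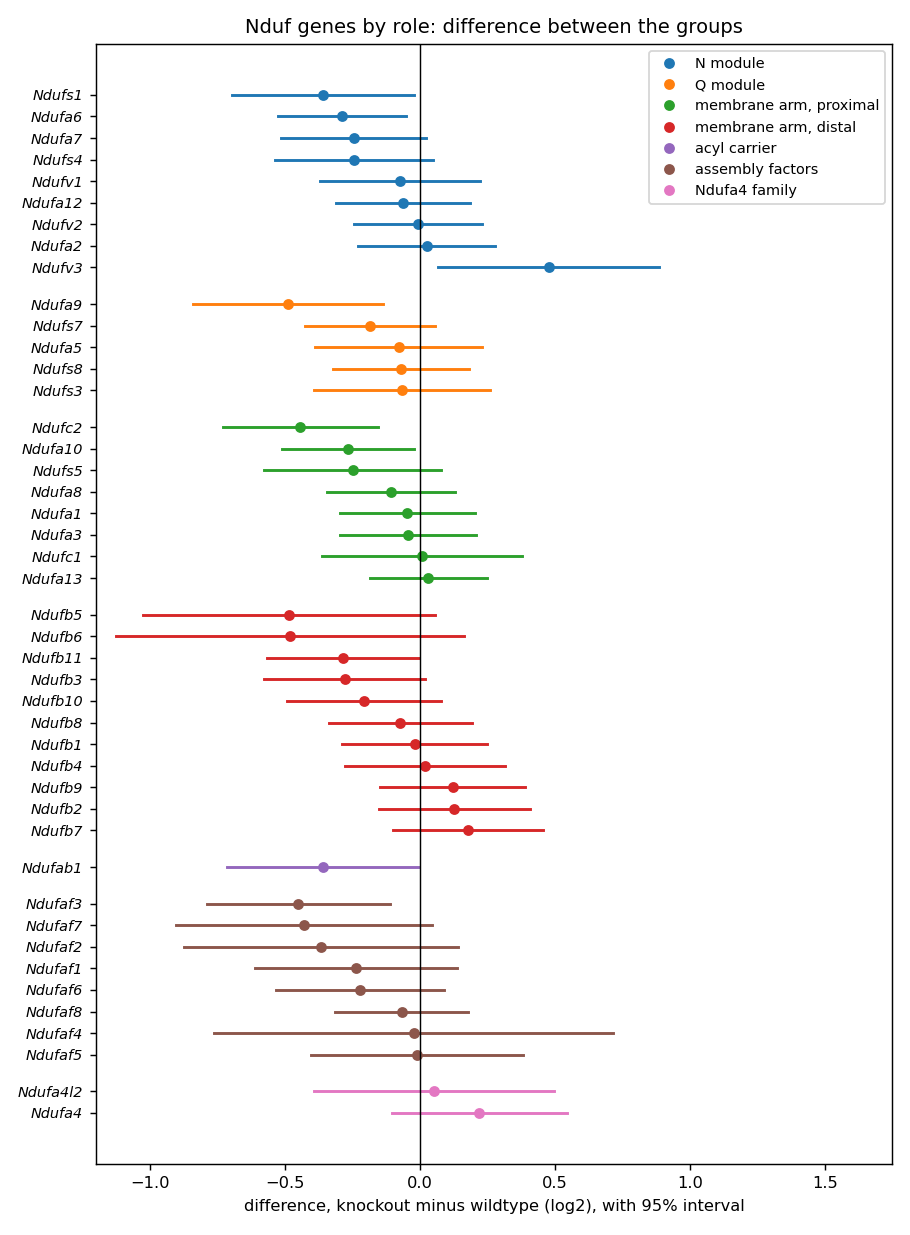
Difference between knockout and wildtype for each of the 44 Nduf genes (x axis, log2), ordered within the parts of complex I, with points at the limma estimate and bars for its 95% confidence interval. Most intervals cross 0, and Ndufa9 at -0.49 and Ndufv3 at 0.48 lie farthest out on either side.

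The N module, where NADH is oxidised, was measured through 9 genes, of which 7 read lower and 2 higher, with a median difference of -0.07 and 0 called. Ndufa6, an accessory subunit of the LYR protein family that helps anchor the acyl carrier protein, read 8.91, 9.0, 8.80 and 8.75 in the 4 knockouts and 9.19, 9.09, 9.21, 9.01 and 9.28 in the 5 wildtypes. All knockouts lay below all wildtypes, although the highest knockout and the lowest wildtype were almost level. The difference was -0.29 (SE 0.11), which is 81.9% of the wildtype level, with a limma adjusted p of 0.210.

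Ndufs1, the large iron-sulfur subunit of the module, read 7.58, 7.45, 7.37 and 6.95 in knockout and 7.62, 7.47, 7.93, 7.62 and 7.84 in wildtype. The groups overlapped only through wildtype 2, and knockout 4 was the lowest array. Its difference was -0.36 (SE 0.15), with a limma adjusted p of 0.257, and -0.23 without knockout 4.

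Ndufv3, a small accessory subunit next to the flavoprotein, was the member with the highest difference. It read 10.21, 10.27, 10.19 and 10.55 in knockout and 9.75, 9.95, 9.39, 10.39 and 9.66 in wildtype. The knockouts lay close together and above 4 of the 5 wildtypes, while wildtype 4, the wildtype with high Xist, lay among the knockouts. The difference was 0.48 (SE 0.19, 95% interval 0.07 to 0.89), or 139% of the wildtype level, with a limma adjusted p of 0.223. With the Xist level of each array as a covariate the difference was 0.03, with a limma adjusted p of 0.991, and without wildtype 4 it was 0.62, with a limma adjusted p of 0.119.

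In their brightest probe sets the other core subunits of the module showed no such gap. Ndufv1, which carries the flavin and the NADH site, read 9.28, 9.35, 9.28 and 9.38 in knockout and 9.49, 9.32, 9.04, 9.42 and 9.69 in wildtype. All knockouts lay inside the wildtype range, and the difference was -0.07 with a limma adjusted p of 0.802. The third probe set of Ndufv1 read 8.05, 8.02, 7.97 and 7.86 in knockout, all below the wildtypes at 8.30 to 8.41. That probe set differed by -0.36, with a limma adjusted p of 0.104 over all probe sets. Ndufv2, the iron-sulfur partner of Ndufv1, differed by -0.01, with a 95% interval from -0.24 to 0.23. Ndufa7, an accessory subunit, differed by -0.25 with a limma adjusted p of 0.322, and by -0.16 without knockout 4. Ndufs4, a subunit whose loss causes Leigh-like disease, differed by -0.24 with a limma adjusted p of 0.361. Ndufa12 and Ndufa2 differed by -0.06 and 0.03.

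The Q module was measured through 5 genes, and all 5 read lower in knockout, with a median difference of -0.08 and 0 called. Ndufa9, an accessory subunit at the joint between the matrix and membrane arms, had the lowest difference of all members. Its values were 8.24, 8.03, 7.96 and 7.44 in knockout and 8.34, 8.25, 8.59, 8.47 and 8.38 in wildtype. The groups did not overlap, with knockout 1 just under wildtype 2 and knockout 4 well below the rest. The difference was -0.49 (SE 0.16, 95% interval -0.84 to -0.14), or 71.3% of the wildtype level, with a limma adjusted p of 0.166. Without knockout 4 it was -0.33, and without knockout 1 it was -0.60.

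In their brightest probe sets the core subunits of the Q module lay nearer to 0. Ndufs7, which carries the last iron-sulfur cluster before ubiquinone, read 8.71, 8.75, 8.74 and 8.89 in knockout and 8.91, 8.88, 8.81, 9.07 and 9.12 in wildtype. The groups overlapped narrowly, and the difference was -0.18 with a limma adjusted p of 0.398. The second probe set of Ndufs7 differed by -0.38, with a limma adjusted p of 0.223 over all probe sets. Ndufs3 and Ndufs8, the other core subunits measured here, each differed by -0.07, with limma adjusted p-values of 0.843 and 0.774, and the direction of both reversed under quantile normalization, to 0.02 in each. Without less specific probe sets Ndufs8 differed by -0.36, with a limma adjusted p of 0.300. The accessory subunit Ndufa5 differed by -0.08. Over the 6 core subunits of both modules measured here all differences were below 0 and the median was -0.07, although 1 of the 6, Ndufs1, had an unadjusted p under 0.05. Ndufs6, Ndufa11 and the mitochondrially encoded subunits were not analysed here.

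The proximal part of the membrane arm, next to the matrix arm, was measured through 8 genes, of which 6 read lower and 2 higher, with a median of -0.08 and 0 called. Ndufc2, a short membrane subunit needed for assembly of this part, had the smallest p-value of all members. It read 9.41, 9.39, 8.97 and 9.05 in knockout and 9.55, 9.55, 9.71, 9.81 and 9.60 in wildtype. All knockouts lay below all wildtypes, and knockouts 3 and 4 were lower than 1 and 2. The group levels were 9.20 ± 0.23 (SD, n = 4) and 9.64 ± 0.11 (SD, n = 5). The difference was -0.44 (SE 0.13, 95% interval -0.73 to -0.16), or 73.6% of the wildtype level, with a limma adjusted p of 0.130 and between -0.51 and -0.36 when each array was left out in turn.

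Ndufa10, a subunit with a nucleoside kinase fold, read 9.21, 9.34, 8.94 and 9.20 in knockout and 9.49, 9.40, 9.51, 9.35 and 9.43 in wildtype. The groups did not overlap but knockout 2 and wildtype 4 were nearly equal. The difference was -0.27 (SE 0.11), with a limma adjusted p of 0.248. Its second probe set, with a mean of 3.72, gave 0.08, and the mean of both probe sets gave -0.09. The accessory subunits Ndufs5, Ndufa8, Ndufa3, Ndufa13 and Ndufc1 differed by -0.25, -0.11, -0.04, 0.03 and 0.01. Ndufa13 was measured most tightly, with a 95% interval from -0.18 to 0.25.

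The distal part of the membrane arm, built from the B subunits, was measured through 11 genes, of which 7 read lower and 4 higher, with a median of -0.07 and 0 called. Ndufb11 is X-linked and is a known disease gene in people with skin and heart defects. Its values were 10.04, 10.10, 9.92 and 9.83 in knockout and 10.14, 10.13, 10.09, 10.36 and 10.55 in wildtype. The groups overlapped through knockout 2 and wildtype 3, and the difference was -0.28 (SE 0.13) with a limma adjusted p of 0.279. The other X-linked member, Ndufa1, a proximal subunit, differed by -0.05 with a 95% interval from -0.30 to 0.20, so neither of the 2 X-linked members read higher in the knockouts, where Xist was high.

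In their brightest probe sets Ndufb5 and Ndufb6 had low differences that rested on knockouts 3 and 4. Ndufb5 read 9.24, 9.23, 7.97 and 8.76 in knockout and 9.19, 9.24, 9.30, 9.07 and 9.63 in wildtype, which differed by -0.49 (limma adjusted p 0.327). Ndufb6 read 8.37, 8.35, 7.13 and 6.98 in knockout and 8.10, 8.15, 8.38, 7.94 and 8.35 in wildtype, which differed by -0.48 (limma adjusted p 0.409). In both of these probe sets knockouts 1 and 2 lay within the wildtype range and knockouts 3 and 4 below all wildtypes. The second probe set of Ndufb5 read 8.47, 8.33, 7.99 and 7.79 in knockout, all below the wildtypes at 8.54 to 8.91. In the second probe set of Ndufb6 knockout 1, at 7.63, lay within the wildtype range of 7.52 to 7.99. The other knockouts lay below that range.

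Ndufb3 differed by -0.28 with a limma adjusted p of 0.312, and by -0.16 without knockout 4. Ndufb10 differed by -0.21 with a limma adjusted p of 0.427. In their brightest probe sets Ndufb7 (0.18), Ndufb2 (0.13) and Ndufb9 (0.12) read higher in knockout, each with an interval that held 0. Ndufb8 differed by -0.07. The second probe set of Ndufb9, with a mean of 9.39, gave -0.08. Ndufb1, a short accessory subunit, differed by -0.02. Its values, from 4.10 to 4.56, lay partly at the level Xist showed where it was low, so this difference says little. Ndufb4 was the dimmest member, with a mean of 2.71 from its only probe set that names 1 gene, since the others also name Ndufb4b and Ndufb4c. Its values lay between 2.42 and 3.05, at or below the level that Xist showed in the 4 wildtypes where it was low, so its difference of 0.02 says little about the subunit.

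Ndufab1, the mitochondrial acyl carrier protein, serves fatty acid synthesis as well as complex I, which holds copies of it in both arms. It read 8.18, 7.98, 7.70 and 7.47 in knockout and 7.94, 8.23, 8.46, 8.12 and 8.20 in wildtype. The groups overlapped, and the knockouts ran from the middle of the wildtype range to well below it. The difference was -0.36 (SE 0.16), with a limma adjusted p of 0.276. It was -0.24 without knockout 4 and -0.17 without less specific probe sets.

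**Figure D2:**
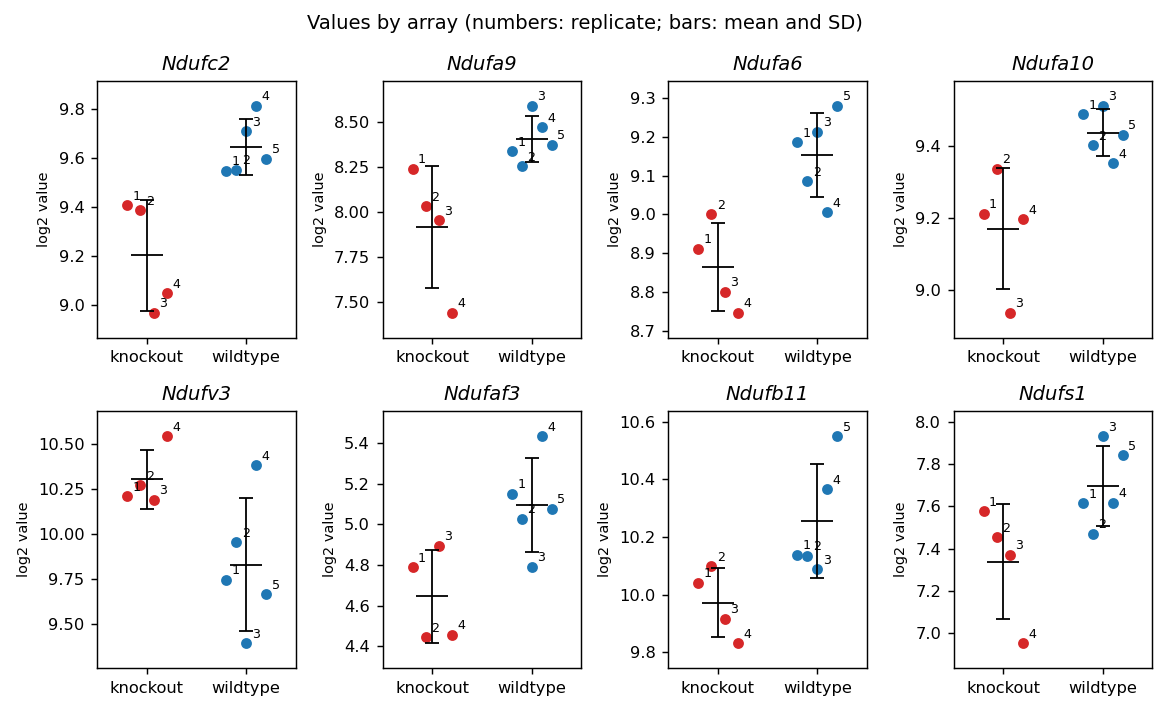
Log2 expression (y axis, a scale of its own per gene) of 8 of the 9 members with an unadjusted p under 0.05, by genotype (x axis), with 1 point per array marked by its replicate number and bars for the group mean and SD. For Ndufc2, Ndufa9, Ndufa6 and Ndufa10 the groups do not overlap, and for Ndufv3 wildtype 4 at 10.39 lies among the knockouts.

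The 8 Nduf assembly factors all read lower in knockout, with a median of -0.23 and 0 called. Their mean level was 5.38, 5.09, 5.18 and 4.61 in knockouts 1 to 4 and between 5.20 and 5.37 in the wildtypes. Knockout 1 was thus almost level with the highest wildtype, and knockout 4, the array with high dermal markers, lay far below. The median deviation from each gene's mean was 0.015 in knockout 1 and from 0.012 to 0.20 in the wildtypes. They were dimmer than the subunits' probe sets, with a median level of 5.03. Ndufaf3, which acts with Ndufaf4 on the early Q module, read 4.79, 4.44, 4.89 and 4.46 in knockout and 5.15, 5.03, 4.79, 5.43 and 5.08 in wildtype. Only wildtype 3 lay within the knockout range. Its difference was -0.45 (SE 0.15), or 73.2% of the wildtype level, with a limma adjusted p of 0.183. With array weights Ndufaf3 was the only member called, at -0.53 and a limma adjusted p of 0.0262. That fit called 2.27% of the Nduf genes and 9.04% of all genes.

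Ndufaf4 itself was the most variable member, at 6.45, 5.75, 4.87 and 4.60 in knockout and 5.30, 5.14, 5.89, 5.58 and 5.30 in wildtype. The knockouts ran from above to below all wildtypes, and the difference was -0.02 with an interval from -0.76 to 0.72. Ndufaf7, a methyltransferase, differed by -0.43 with a limma adjusted p of 0.324, and by -0.21 without knockout 4. Ndufaf2, a late chaperone, differed by -0.37 and read 4.18 on knockout 4 against 5.00 to 5.61 on the other arrays. Ndufaf1, which acts on the membrane arm, differed by -0.24 and Ndufaf6 by -0.22. Ndufaf8 and Ndufaf5, which act together on Ndufs7, differed by -0.07 and -0.01. Values of Ndufaf5, Ndufaf6 and Ndufaf7 lay at least partly at the level Xist showed where it was low, so their differences say little. Of 12 further complex I assembly factors without an Nduf name, 9 read lower and 3 higher with a median of -0.27 and 0 called. Among them Tmem70, which aids assembly of the membrane arm and of ATP synthase, had the smallest p-value, at 4.76 ± 0.39 (SD, n = 4) against 5.64 ± 0.49 (SD, n = 5), and differed by -0.88 (limma adjusted p 0.132).

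Ndufa4 and Ndufa4l2 bear the family name but differ from the rest, since Ndufa4 is a subunit of cytochrome c oxidase and Ndufa4l2 is a hypoxia-responsive relative. Both read higher in knockout. Ndufa4, the brightest probe set among the members, read 11.36, 11.38, 11.63 and 11.28 in knockout and 11.22, 11.22, 11.57, 10.88 and 11.07 in wildtype. The knockouts lay above 4 of the 5 wildtypes and wildtype 3 lay among them, and the difference was 0.22 with a limma adjusted p of 0.454. Ndufa4l2 read 9.85, 9.69, 10.25 and 10.19 in knockout and 9.76, 9.81, 9.51, 10.20 and 10.45 in wildtype. Its groups overlapped almost fully, the difference was 0.05 with an interval from -0.39 to 0.50, and it reversed to -0.01 without knockout 4.

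Different probe sets of a gene gave a check that the choice of the brightest did not use. Each on its own, 0 of the 88 Nduf probe sets was called, against 1.10% of 34945 probe sets. Of the 88, 66 read lower and 22 higher. For 22 genes there was more than 1 probe set, and the second in brightness had the sign of the first in 17, and in 15 of the 18 whose next probe set had a mean of at least 5. These probe sets read the same RNA samples and so share their animals.

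Ndufc2 differed by -0.44, -0.38 and -0.43 in its 3 brighter probe sets and by 0.26 in a dim one with a mean of 2.85. The first and second of these are of a less specific class, which can match other transcripts. In the third, knockout 1 at 7.82 lay above wildtypes 1 and 2 at 7.69 and 7.66. Its limma adjusted p was 0.288 over all probe sets. The 3 probe sets of Ndufb11 differed by -0.28, -0.28 and -0.43, and the 5 of Ndufa7 by between -0.33 and -0.20. In Ndufb5 the second probe set gave -0.56, beside -0.49. For Ndufv1 the probe sets differed more, with -0.07 in the brightest, which is of the class that can match other transcripts, and -0.20 and -0.36 in the dimmer ones. Ndufs7 gave -0.18 and -0.38, and the 6 probe sets of Ndufs8 gave between -0.36 and -0.07. Ndufc1 gave 0.01 and -0.18, and the 3 probe sets of Ndufv2 gave -0.01, 0.08 and -0.23. Without the probe sets of the less specific classes, 41 Nduf genes remained, 33 of them lower, and their median was -0.18.

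**Figure D3:**
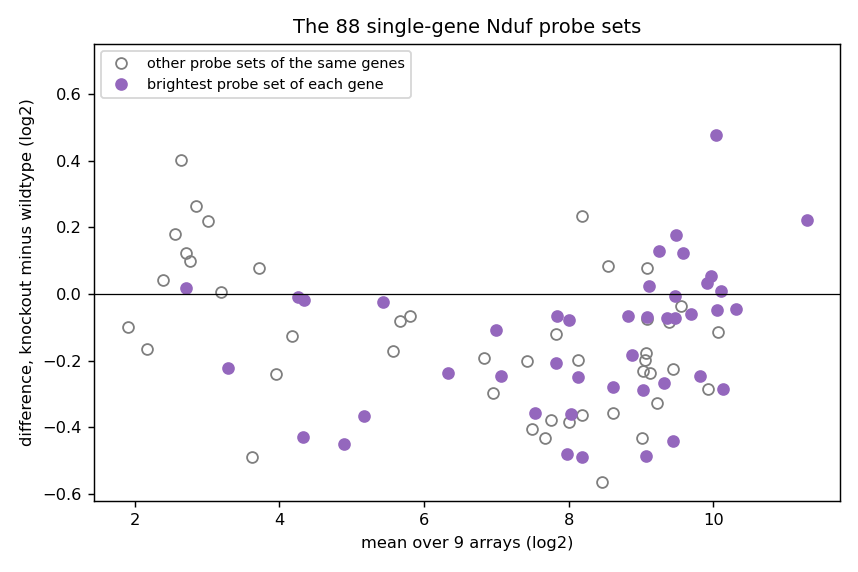
Difference between knockout and wildtype (y axis, log2) of each of the 88 Nduf probe sets against its mean level over all arrays (x axis, log2), filled for the brightest of each gene and open for the others. Most points lie below 0, 66 of 88, and the probe sets of 1 gene are spread around one another, as for Ndufv1 from -0.36 to -0.07.

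The members' lower values lay mostly on particular arrays. The mean over the 44 genes was 8.21, 8.15, 8.01 and 7.84 in knockouts 1 to 4 and 8.13, 8.16, 8.24, 8.23 and 8.19 in wildtypes 1 to 5. Knockouts 1 and 2 lay within the wildtype range and knockouts 3 and 4 below it. Gene by gene, knockouts 1 to 4 lay below all wildtypes in 11, 13, 19 and 30 members. The matching counts over all genes were not taken. The median deviation from each gene's mean was 0.06, 0.02, -0.08 and -0.25 in the knockouts and between 0.02 and 0.14 in the wildtypes. Genes with a mean of at least 8 showed a like order in the knockouts, at 0.07, 0.04, -0.08 and -0.21.

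Knockout 4 had the lowest value of all 9 arrays in 25 of the 44 genes (56.8%), against 19.5% of all genes and 35.8% of the genes with a mean of at least 8. Wildtype 3 had the highest value in 16 (36.4%), against 8.94% and 15.4%. Knockout 4 is the array with high fibroblast and smooth muscle markers, and among the latter Myh11 read 5.06 on it and 2.16 to 2.60 elsewhere. Knockout 3 was low in fibroblast markers, with a mean of 5.37. The mean over 10 skeletal muscle markers was 6.02, 5.84, 4.63 and 4.53 in knockouts 1 to 4. In the wildtypes it ran from 4.05 in wildtype 5 to 6.87 in wildtype 4. Wildtype 3 had the highest mean over 6 adipocyte markers, 8.23, against 4.08 to 4.80 in knockout and 4.04 to 6.71 in the other wildtypes, and its Adipoq level was 9.46, against 2.42 to 7.53 on the other arrays. The part of any of these cell types in the Nduf values was not tested. When knockout 4 was left out, 0 members passed.

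**Figure D4:**
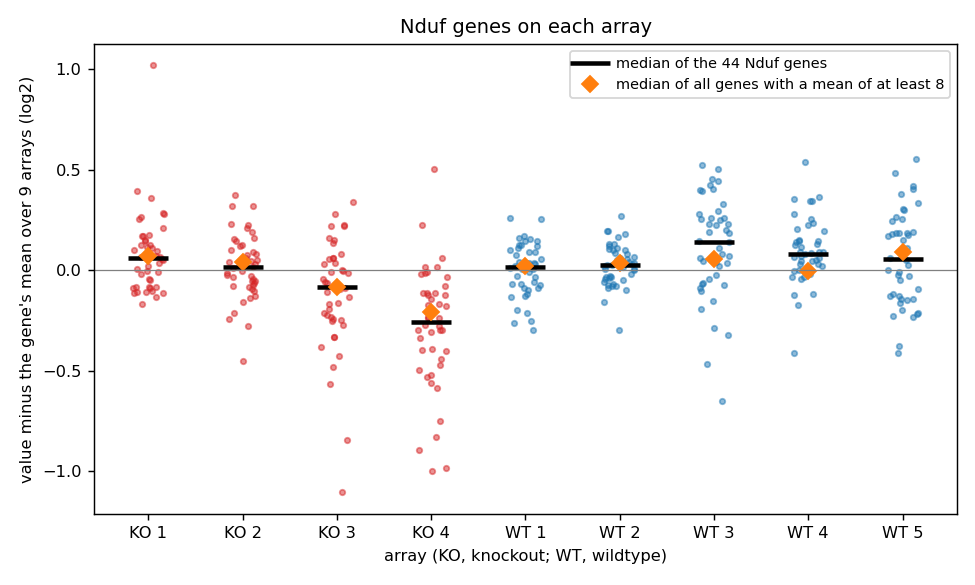
Deviation of each Nduf gene from its own mean over all arrays (y axis, log2) on each of the 9 arrays (x axis), with black bars for the median of the 44 genes and diamonds for the median of genes with a mean of at least 8. The medians of knockouts 3 and 4 lie at -0.08 and -0.25 and those of the other 7 arrays between 0.02 and 0.14.

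The other parts of the respiratory chain and of the mitochondrion gave 0 called genes as well, with medians below 0 in each list. Complex II, or succinate dehydrogenase with its assembly factors, had 7 of 8 genes lower and a median of -0.33. Complex III had 11 of 15 lower and a median of -0.20, and complex IV, cytochrome c oxidase, 15 of 22 and -0.24. ATP synthase had 14 of 17 lower and a median of -0.15, and the citrate cycle 12 of 13 and -0.47. Regulators of mitochondrial biogenesis and of mitochondrial gene expression had 10 of 16 lower and a median of -0.08, and protein import 9 of 13 and -0.22. As among the members, the lowest arrays were knockouts 3 and 4 in most lists. Mean levels of complex II were 6.32, 6.19, 5.86 and 5.83 in knockouts 1 to 4 against 6.14 to 6.52 in wildtype, and those of the citrate cycle 7.69, 7.64, 7.21 and 7.0 against 7.66 to 7.91. In complex III the lowest array was knockout 4 and knockout 3 was the highest knockout. These lists and the members come from the same arrays, and the differences between lists were not tested.

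Within these lists the smallest p-values fell on genes that read lower in knockout. Cox4i1, a subunit of cytochrome c oxidase, read 9.65 ± 0.16 (SD, n = 4) in knockout and 10.16 ± 0.16 (SD, n = 5) in wildtype, and differed by -0.51 (limma adjusted p 0.0789). Uqcrc2, a core protein of complex III, differed by -0.54 with a limma adjusted p of 0.0966. Atpaf1, an assembly factor of ATP synthase, differed by -0.88 with one of 0.0719 and Suclg2, a subunit of succinyl-CoA ligase, by -0.75 with one of 0.0725. Sdhb, the iron-sulfur subunit of complex II, differed by -0.41, with a limma adjusted p of 0.190. Tefm, a mitochondrial transcription elongation factor, differed by -0.96 with one of 0.0911, and Oxa1l, an inner membrane insertase, by -0.62 with one of 0.124.

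**Figure D5:**
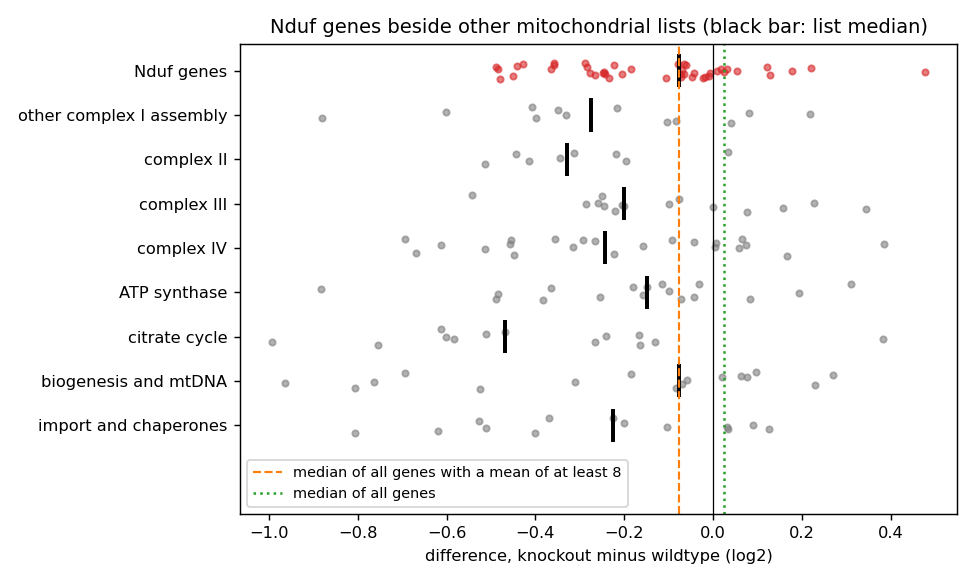
Differences between knockout and wildtype (x axis, log2) of the 44 Nduf genes and of the other mitochondrial lists, with 1 point per gene, the list median as a black bar and dashed and dotted lines at the medians of genes with a mean of at least 8 and of all genes. Medians run from -0.47 for the citrate cycle to -0.08 for the Nduf genes and for biogenesis, and 0 genes shown passed the test.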

How the data were processed

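Log2 expression of 45037 probe sets on 9 arrays, 4 knockout and 5 wildtype, was used as deposited by the authors. The affy package is the tool listed per the submitters' processing notes. The background correction and normalization, not given in the sources used here, could set the level at which dim probe sets read and could move small differences. Values between 1.43 and 14.46 show the log2 scale, and array medians ran from 3.14 to 3.31. Precision is limited by how many arrays there are. Of the probe sets, 34945 named 1 gene in the platform annotation, 932 several and 9160 had no entry. The GRCm38.p6 gene table held 34741 of the single-gene ones. This left 18193 genes, each by its brightest probe set, and 10 probe sets naming an Nduf gene together with another were left out.

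All genes entered 1 fit in limma 3.58.1 under R 4.3.3 (lmFit and eBayes, genotype as the only term, no level filter, Benjamini-Hochberg over all genes, threshold 0.05), and the script was tested on simulated data. Alternatives were other probe set summaries, a level filter, quantile normalization, median centring, trend and robust settings, array weights, Xist as a covariate, a replicate block, each array left out and a threshold of 0.1. The genes given in detail were the 12 members with the smallest p, core subunits, X-linked members, Ndufa4 and Ndufa4l2 and the brightest and dimmest member, and the smallest p of each other list; further members are given by their values. Roles follow textbook assignments. The members and lists were chosen with earlier results of these data known.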

Additional observations from a re-analysis of the deposited data

How the results depend on the processing

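Of the 44 Nduf genes, 0 passed in any of the 18 alternative fits or at an adjusted p under 0.1, except with array weights, where 1, Ndufaf3, passed. That is 2.27% of the members, against 9.04% of all genes in the same fit. The number of all genes called was 226 as reported, 1644 with array weights, 9 with Xist as a covariate, 571 at an adjusted p under 0.1 and between 62 (without knockout 2) and 281 (without wildtype 5) when each array was left out, with 87 without knockout 4, 83 without wildtype 1, 71 without wildtype 2 and 89 without wildtype 4. With the replicate number as a block it was 119, with 0 Nduf genes and a median of -0.13. Replicate numbers did not pair the arrays, since deviations of same-numbered arrays correlated at -0.21, -0.10, -0.21 and 0.18, and number 5 is in wildtype only. The Nduf median lay between -0.15 and -0.07 when each array was left out, moved to -0.18 without less specific probe sets, and was -0.03 after quantile normalization and -0.05 with array weights. Among genes with a mean of at least 5 it was -0.08, against -0.12 for all genes tested there. Of 21 named genes 14 kept their sign in each alternative in which they were tested, which was 17 for Ndufaf3, 16 for Ndufaf7 and 18 for the other 12. The others lay near 0. Quantile normalization gave 0.062 for Ndufv2, 0.015 for Ndufs3, 0.021 for Ndufs8 and -0.048 for Ndufb4. Array weights gave 0.0017 for Ndufv2, 0.073 for Ndufs3, 0.030 for Ndufs8, 0.077 for Ndufa1 and -0.048 for Ndufa4l2. Xist as a covariate gave 0.074 for Ndufs3, -0.087 for Ndufa4l2 and -0.28 for Ndufb4. Centring gave -0.023 for Ndufb4, and the replicate block gave 0.0031 for Ndufv1 and -0.016 for Ndufb4. When each array was left out, values ran from -0.057 to 0.18 for Ndufa4l2, -0.051 to 0.11 for Ndufb4, -0.12 to 0.0076 for Ndufs8, -0.060 to 0.031 for Ndufv2, -0.15 to 0.053 for Ndufs3, -0.087 to 0.035 for Ndufa1 and -0.16 to 0.0031 for Ndufv1. The cause of these shifts was not tested. No detection call was used, and the dim members Ndufb4 and Ndufaf6 lay at or below the level Xist showed where it was low. Ndufaf5, Ndufaf7 and Ndufb1 lay partly at that level.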
